A study of Mus musculus with 12 samples.

Results

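The replication-dependent histone genes are those whose mRNAs supply the histone proteins that package newly copied DNA. They were taken as the rows of the count table whose symbol begins with Hist1h, Hist2h, Hist3h or Hist4h, which gave 68 of 24421 rows, and 48 of these had a total of 50 or more counts over the 12 libraries. Closest to that limit were Hist1h4n with a total of 80 counts and Hist1h2ai with 86 inside it, and Hist1h2bl with 43 and Hist1h2an with 21 outside it. The libraries came from subcutaneous melanoma grafts grown for 12 days in C57BL/6 mice of the genotype Rpl22fl/flHA;Cdh5(PAC)-CreERT2. Tamoxifen was given to every group and starts Cre in cells that use the Cdh5 promoter, that is in endothelial cells, where it puts an HA tag on the ribosomal protein Rpl22. Ribosome-bound RNA was then isolated and sequenced. Of the libraries, 7 came from B16F10 tumours, labelled highly metastatic, and 5 from B16F0 tumours, labelled poorly metastatic; both are established mouse melanoma lines. The grafted tumour cells carry neither the tag nor the Cre. The labels do not say whether the libraries of a line came from separate mice, so p-values measure only the spread between these libraries.

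Most mRNAs end in a poly(A) tail, but replication-dependent histone mRNAs end just after a short stem-loop, which the stem-loop binding protein Slbp recognises. The genes sit in clusters, have no introns, and are switched on as cells copy their DNA in S phase. Some of them, including Hist1h1c, Hist1h2bc and Hist2h2be, are also known to give polyadenylated transcripts. The proteins H2A, H2B, H3 and H4 form the core of the nucleosome, and H1 binds the DNA that links nucleosomes.

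Of the 48 genes, 39 lie in the Hist1 locus on chromosome 13, 6 in Hist2 on chromosome 3, 2 in Hist3 on chromosome 11, and Hist4h4 on chromosome 6. By protein, 6 encode H1, 11 H2A, 13 H2B, 6 H3 and 12 H4; Hist3h2bb-ps, a pseudogene by its symbol, is counted with H2B. The stem-loop was looked for within 150 bases after the stop codon of the annotated GENCODE transcript (GRCm38). It was taken as a stem of 6 bases on each side of a loop of 4 bases, and was found in 32 of the 48. The search required GG at the start and TT at the start of the loop, and allowed up to 1 mismatch in the stem. The GG and TT shared by the forms were thus set by the search, and a variant without them would be missed. The forms are shown because they are what these mRNAs have in place of a poly(A) tail; capitals mark the stem and lower case the loop.
Found in 15 genes, among them Hist1h1c, Hist1h1d and Hist1h1e: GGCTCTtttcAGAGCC
Found in 6 genes, all of the H4 class, among them Hist1h4d, Hist1h4f and Hist4h4: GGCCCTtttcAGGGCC
Found in 6 genes, among them Hist1h2bb, Hist1h2bk and Hist1h1t: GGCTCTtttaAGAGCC
Found in Hist1h4i and Hist2h4: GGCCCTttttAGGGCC
Found in Hist1h4b and Hist1h4j: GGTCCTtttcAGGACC
Found in Hist2h2ac: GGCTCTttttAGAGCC
The 16 genes in which none was found include Hist1h1a, Hist1h1b, Hist1h2bn, Hist2h2bb, Hist2h2be and Hist1h2bc. For Hist1h1b, Hist1h2bn and Hist2h2bb the annotated transcript has 0 bases after the stop codon, so there was nothing to search. The same held for Hist1h2ai, Hist1h2ak, Hist1h4k and Hist2h2ab. Hist1h2af has 1 base there and Hist1h2ah has 2, too few for a stem-loop, and Hist3h2bb-ps has no annotated coding sequence. In 18 of the 32 genes the annotated transcript runs on for over 100 bases after the stem-loop, for example 840 bases in Hist1h1c and 4884 bases in Hist1h1d.

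RefSeq promoter windows, from 250 bases before to 50 bases after the gene start (GRCm38.p6), were matched for 42 of the 48 genes. The letters CCAAT, on either strand, were in 34 of the 42, against 37.4% of all 32851 windows. They were in every matched window of H1 (6 of 6), H2A (11 of 11), H2B (10 of 10) and H3 (4 of 4), but in 3 of 11 of H4. The letters TATAAA were in 23 of 42, against 13.6% of all windows. The octamer ATTTGCAT was in 11 of 42, of which 6 were H2A and 5 H2B, against 1.74% of all windows. Windows of some neighbouring H2A and H2B genes overlap. Hist1h2ae and Hist1h2bg share an octamer site, as do Hist1h2ah and Hist1h2bk, and each such site is counted under both classes. CCAAT and TATAAA sites in overlapping windows are counted in the same way. A match describes the letters and does not show that a factor binds. The windows of 4 genes are shown because the levels of Hist1h1a, Hist1h1b and Hist1h2bn moved with the endothelial content of the library and that of Hist1h4c moved against it; capitals mark CCAAT and TATAAA matches on either strand.
Hist1h1a, chr13:23763418-23763717, + strand: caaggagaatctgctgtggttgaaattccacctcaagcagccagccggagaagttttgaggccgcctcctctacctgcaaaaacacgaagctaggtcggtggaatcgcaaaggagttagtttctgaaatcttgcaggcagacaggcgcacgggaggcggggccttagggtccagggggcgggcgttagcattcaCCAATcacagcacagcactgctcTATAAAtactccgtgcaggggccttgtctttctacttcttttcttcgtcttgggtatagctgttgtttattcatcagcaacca
Hist1h1b, chr13:21780576-21780875, - strand: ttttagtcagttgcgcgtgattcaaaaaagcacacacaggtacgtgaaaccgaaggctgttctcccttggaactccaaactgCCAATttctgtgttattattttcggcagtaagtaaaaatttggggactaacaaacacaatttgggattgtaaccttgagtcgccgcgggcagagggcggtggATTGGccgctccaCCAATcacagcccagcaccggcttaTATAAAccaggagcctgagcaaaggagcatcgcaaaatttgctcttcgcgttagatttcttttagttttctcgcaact
Hist1h2bn, chr13:21753826-21754125, + strand: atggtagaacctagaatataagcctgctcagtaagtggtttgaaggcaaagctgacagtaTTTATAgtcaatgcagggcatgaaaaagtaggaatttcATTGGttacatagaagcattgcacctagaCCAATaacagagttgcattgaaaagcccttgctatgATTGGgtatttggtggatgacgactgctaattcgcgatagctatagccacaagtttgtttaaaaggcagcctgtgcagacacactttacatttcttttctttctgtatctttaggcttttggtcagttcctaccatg
Hist1h4c, chr13:23698409-23698708, - strand: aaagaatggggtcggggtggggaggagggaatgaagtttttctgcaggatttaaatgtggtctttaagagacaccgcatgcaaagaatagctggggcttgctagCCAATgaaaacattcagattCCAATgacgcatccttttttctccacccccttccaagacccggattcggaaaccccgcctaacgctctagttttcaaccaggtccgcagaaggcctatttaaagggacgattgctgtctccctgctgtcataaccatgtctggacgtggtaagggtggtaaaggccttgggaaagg
The first 3 windows hold both CCAAT and TATAAA letters, and the window of Hist1h4c holds CCAAT at 2 places and no TATAAA. In the Hist1h2bn window the TATAAA match is on the opposite strand. These letters do not set the genes apart by direction. The windows of Hist1h4a and Hist1h2bk, whose levels also moved against the endothelial content, hold both. Of the others that did so, Hist1h4f holds TATAAA alone, and Hist1h1c and Hist2h2bb hold CCAAT alone.

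Library totals ran between 5322510 and 20569186 counts, and the histone genes took between 0.132% and 0.311% of them. Values below are CPM, counts per 1000000 counts of the library total after TMM scaling, which are not divided by gene length. The labels name endothelial cells as the source, yet 12 melanocyte markers summed to between 9149 and 19487 CPM and 20 endothelial markers to between 813 and 5992 CPM, so every precipitate held RNA of both cell types. Markers of leukocytes summed to between 20.6 and 142 CPM, erythroid markers to between 5.15 and 100.3 CPM, and testis markers, leaving out the member Hist1h1t, to at most 0.7 CPM. The ribosomal precursor RNA Rn45s took 31.4% of the counts of B16F10 replicate 5 and 8.91% of B16F0 replicate 5, and at most 1.75% elsewhere. The libraries were run on sequencing lanes 1, 2 and 6, with 2, 2 and 3 B16F10 libraries and 2, 1 and 2 B16F0 libraries in that order. In bulk RNA, fewer cells of a type and less RNA per cell cannot be told apart, and a histone level here is that of the mixture.

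The summed histone level was close in the lines and varied mainly between libraries. It averaged 2077 ± 836 CPM in B16F10 (SD, n = 7) and 1898 ± 625 CPM in B16F0 (SD, n = 5), with a ratio of the means of 1.09. In B16F10 it was lowest at 1147 CPM in replicate 2, had a median of 2014 CPM and was highest at 3139 CPM in replicate 3. In B16F0 it was 1379, 1947, 1445, 1787 and 2934 CPM in replicates 1 to 5. The ranges of the lines overlapped almost wholly. By lane, the sum averaged 1989 CPM in lane 1, 1253 CPM in lane 2 and 2464 CPM in lane 6. B16F10 libraries averaged 2281 CPM against 1696 CPM for B16F0 in lane 1, 1189 against 1379 CPM in lane 2, and 2534 against 2361 CPM in lane 6. The direction was thus not the same in every lane.

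**Figure D1:**
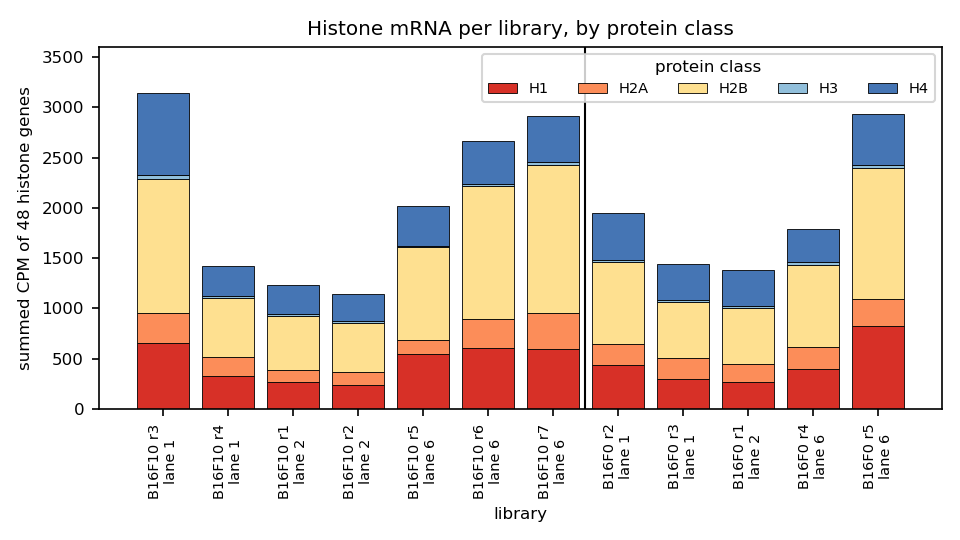
Summed CPM of the 48 histone genes (y axis) in each library (x axis; r is the replicate), stacked by protein class, with B16F10 left of the vertical line and B16F0 right of it. The bars of lane 2 are among the lowest and the highest bar is B16F10 replicate 3, at 3139 CPM.

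H2B genes made up 44.6% of the mean sum, H1 22.7%, H4 20.8%, H2A 10.8% and H3 1.14%. H1 genes summed to 462 ± 178 CPM in B16F10 and 446 ± 225 CPM in B16F0 (SD, n = 7 and 5). H2B genes summed to 950 ± 425 CPM in B16F10 and 813 ± 306 CPM in B16F0, and H4 genes to 424 ± 187 CPM in B16F10 and 403 ± 80.1 CPM in B16F0. The smaller classes were as close, with H2A at 218 ± 95.5 CPM in B16F10 and 214 ± 31.5 CPM in B16F0, and H3 at 23.1 ± 8.34 CPM in B16F10 and 22.4 ± 2.55 CPM in B16F0. Each of these class differences was smaller than the spread between libraries of either line.

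The 8 genes with the highest mean CPM took 77.4% of the sum. They were Hist2h2bb at 584 CPM, Hist1h4d at 264, Hist1h1d at 163, Hist1h1e at 154, Hist1h1c at 115, Hist1h2bb at 111, Hist2h2ac at 90 and Hist3h2a at 70. Divided by the annotated exon length, the mean level was 1533 CPM per kb for Hist2h2bb, 232 for Hist1h4d, 219 for Hist1h2bb and 173 for Hist2h2ac. It was 79.9 CPM per kb for Hist1h1e, 73.7 for Hist1h1c, 32.6 for Hist3h2a and 22 for Hist1h1d, whose annotated transcript is long. Values per kb rest on GENCODE lengths, because no source used here names the annotation behind the counts. Hist2h2bb, which encodes an H2B, took 29.2% of the sum on its own, and none of its 50-base windows is unique among annotated transcripts. In all, 44 of the 48 genes have at least some windows shared with another transcript, and exons of 16 overlap another gene, so the split of reads between near copies is uncertain. The 4 genes with only unique windows are Hist1h1a, Hist1h1b, Hist1h1t and Hist2h2be.

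Most individual genes varied between libraries more than the sum. Of the 44 genes above 0 in every library, the highest library was a median of 4.89 times the lowest, from 1.83 times for Hist1h3e to 51.9 times for Hist1h2bn. B16F10 replicate 3 was the highest library for 21 of the 48 genes, B16F10 replicate 7 and B16F0 replicate 5 for 7 each, and B16F10 replicate 5 and B16F0 replicate 3 for 5 each. Lane 2 had the lowest mean for 37 of the 48 genes. Low counts kept 4 genes (Hist1h2ai, Hist1h2ak, Hist1h2bf and Hist1h4n) out of the tests, which leaves 44. Of the 20 symbols under 50 counts, 8 had 0 counts in every library, which allows up to 0.0195 CPM over all libraries (3 counts, counting error only). Of those 8, 2 have no unique window.

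**Figure D2:**
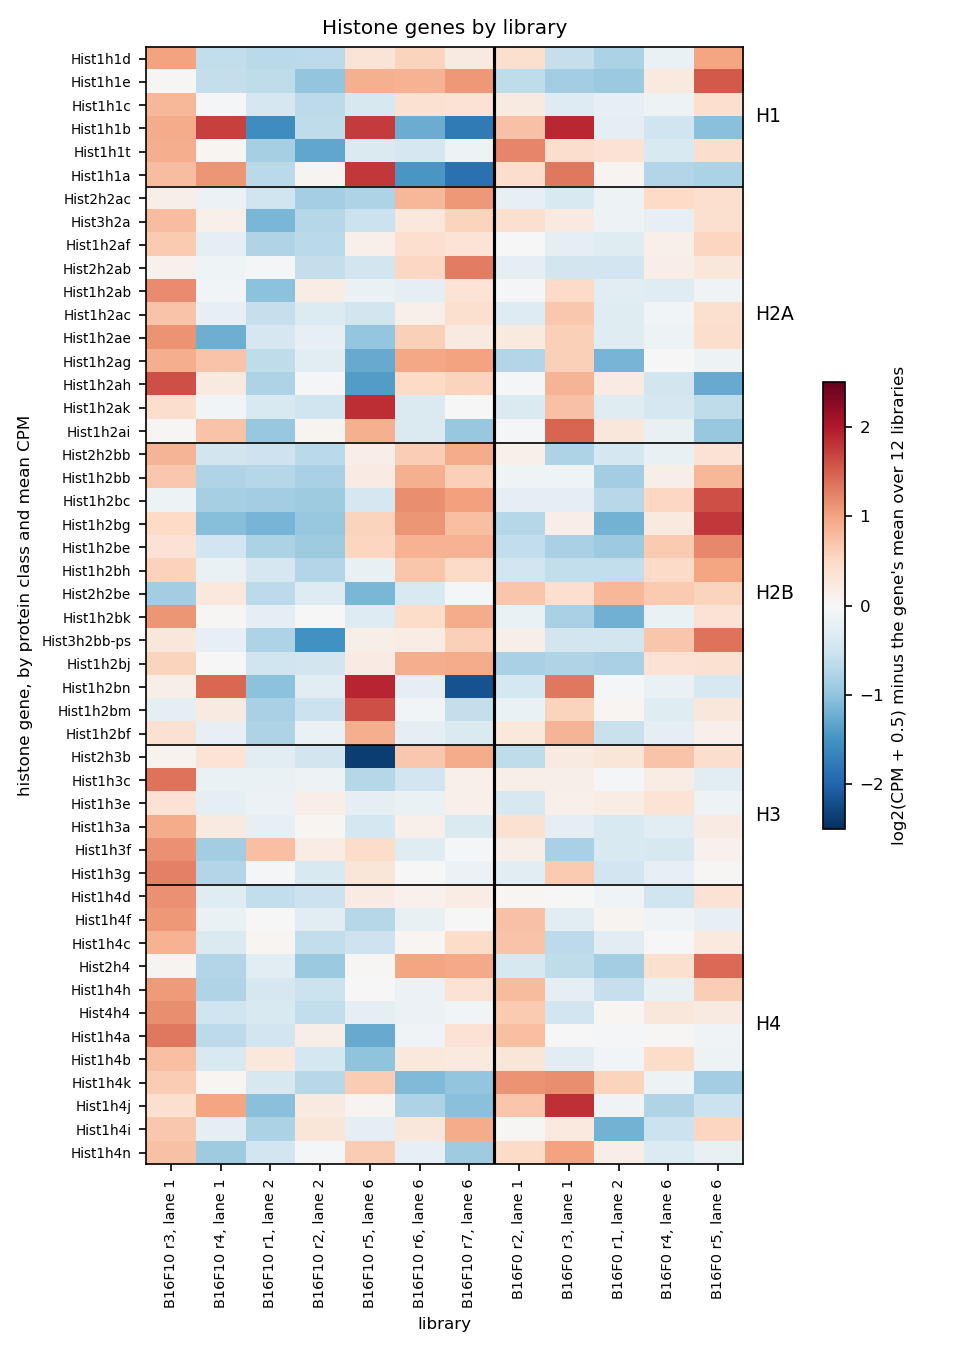
Colour shows log2(CPM + 0.5) of each of the 48 histone genes (rows, grouped by protein class) minus that gene's mean over the 12 libraries (columns, B16F10 left of the vertical line, B16F0 right). The column of B16F10 replicate 3 is red for most genes, and a few rows (Hist1h1a, Hist1h1b, Hist1h2bn) follow another pattern, red in B16F10 replicates 4 and 5 and in B16F0 replicate 3.

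The first comparison asks whether the ribosome-bound histone mRNAs differ between highly and poorly metastatic tumours. Hist2h2be, an H2B gene, was the 1 gene of 44 that was lower in B16F10, and 0 of 44 were higher. It had 5.33 CPM in the lowest, 9.37 in the median and 14.8 in the highest B16F10 library, against 22.3, 20.1, 16.5, 19.7 and 18.2 CPM in B16F0 replicates 1 to 5. Every B16F10 library was below every B16F0 library, and no other histone gene separated the lines in this way. The share of all genes that did so was not counted, so this separation has no background beside it. The log2 fold change of Hist2h2be was -1.05 ± 0.23 (SE; edgeR quasi-likelihood test with lane in the model, adjusted p = 0.0311 over 13534 genes). Across all tested genes 1.47% were lower and 1.3% higher, so 1 of 44 lower is near the background. Within lanes the log2 difference of Hist2h2be was -0.85 in lane 1, -1.32 in lane 2 and -1.12 in lane 6. Its call was lost without B16F10 replicate 1, 2 or 6 or B16F0 replicate 1, 2, 4 or 5, with adjusted p between 0.0634 and 0.134 and log2 fold changes between -1.06 and -0.96. It was lost too with library size scaling (adjusted p = 0.0799), with the library name prefix in place of the lane (0.0508), without lane 2 (0.214) and without the Rn45s-rich libraries (0.0658), the log2 fold change staying at -0.94 or below. Hist2h2be is among the genes with unique windows and a known polyadenylated form, and the mean levels by lane were 14.5, 13.2 and 12.9 CPM in lanes 1, 2 and 6.

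No other histone gene passed, and the fold changes scattered around 0. The median log2 fold change of the 44 genes was 0.06, beside 0.02 over all tested genes, with 28 values above 0 and 16 below. At an unadjusted p under 0.05, 2 genes were higher and 2 lower in B16F10, beside 965 higher and 1043 lower of 13534 tested genes. After Hist2h2be, the lowest log2 fold changes were those of Hist1h4k (-0.77 ± 0.64, adjusted p = 0.637) and of Hist1h1t, the testis form of H1 (-0.65 ± 0.28, adjusted p = 0.29; edgeR). The highest were those of Hist1h2ag (0.94 ± 0.50, adjusted p = 0.426), Hist1h4i (0.86 ± 0.68, adjusted p = 0.618) and Hist1h2bk (0.83 ± 0.30, adjusted p = 0.193; edgeR). The H1 genes gave 0.40 for Hist1h1a, 0.25 for Hist1h1b, 0.08 for Hist1h1c, 0.11 for Hist1h1d and 0.17 for Hist1h1e, with SE between 0.22 and 0.62 and adjusted p of 0.795 or more. For Hist1h1c the levels were 117 ± 44.9 CPM in B16F10 and 112 ± 25 CPM in B16F0. Hist1h2bc, the third gene with a known polyadenylated form, had 48.9 ± 33.5 CPM in B16F10 and 61.5 ± 45.1 CPM in B16F0 (log2 fold change -0.29 ± 0.27, adjusted p = 0.685).

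**Figure D3:**
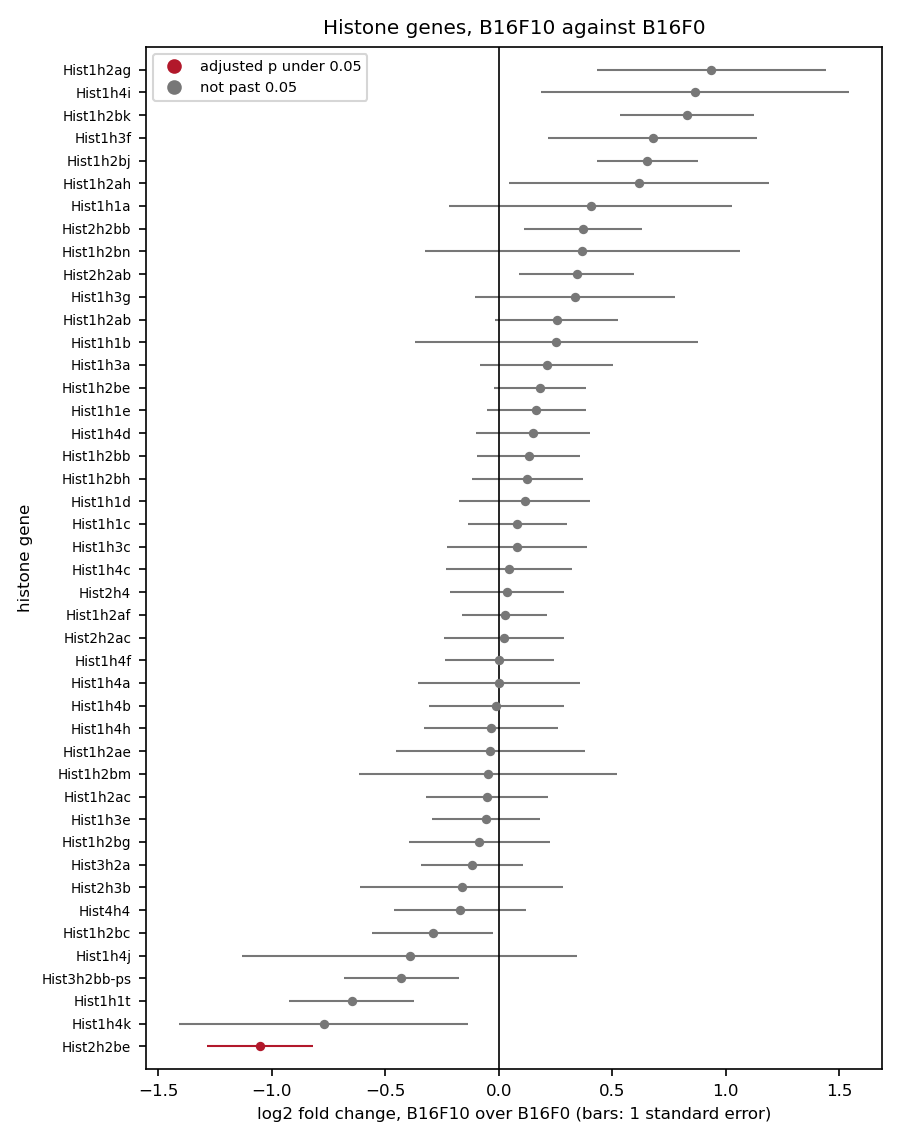
Log2 fold change of B16F10 over B16F0 (x axis) with 1 standard error for each of the 44 tested histone genes (y axis, sorted). Hist2h2be, in red at -1.05, is the gene past an adjusted p of 0.05.

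In lists of related genes, 2 genes passed between the lines. Of 23 tested genes of histone mRNA processing, 0 passed the test in either direction. Slbp had 56.4 ± 16.1 CPM in B16F10 and 67.8 ± 19.0 CPM in B16F0 (adjusted p = 0.627), and Npat, the coactivator of histone genes, 65.5 ± 12.2 CPM in B16F10 and 76.5 ± 12.8 CPM in B16F0 (adjusted p = 0.589; edgeR). Casp8ap2, a factor needed for histone mRNA production, had a log2 fold change of 0.61 ± 0.26 (adjusted p = 0.29), and Lsm11, a subunit of the U7 particle that cuts histone mRNA, one of 0.36 ± 0.13 (adjusted p = 0.183; edgeR). Among 50 S phase genes and 25 mitosis genes 0 passed, and the smallest p were those of Gins3 (log2 fold change -0.37) and Wdhd1 (-0.43), and of Bub1 (-0.45) and Nusap1 (-0.54). Of 10 tested replacement histone genes, which are made outside S phase, H1f0 was higher, at 239 ± 52.0 CPM in B16F10 and 147 ± 46.0 CPM in B16F0 (log2 fold change 0.74 ± 0.16, adjusted p = 0.0253). The other replacement gene of smallest p, H1fx, had a log2 fold change of 2.45 ± 0.78 (adjusted p = 0.137) at about 1 CPM or less. Of 20 histone chaperone genes 0 passed, with Supt16 (-0.47, adjusted p = 0.0944) and Hjurp (0.50, adjusted p = 0.135) of smallest p in edgeR's test. Among the markers, Oca2 was lower (-1.10 ± 0.17, adjusted p = 0.00379), 1 of 12 melanocytic genes, and 0 of 20 endothelial, 9 tested leukocyte and 12 tested genes for RNAs without poly(A) passed.

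The second comparison is between sequencing lanes, as the library names give them. Lane 6 held the highest level of a set of H2B genes and of Hist1h1e and Hist2h4. In a joint test of the 3 lanes with the line in the model, 7 of 44 histone genes passed (edgeR, adjusted p under 0.05), while 3.14% of all tested genes did. They were the H1 gene Hist1h1e (adjusted p = 0.0222), the H2B genes Hist1h2be (0.0222), Hist1h2bc (0.0342), Hist1h2bg (0.0422), Hist1h2bj (0.0484) and Hist3h2bb-ps (0.0499), and the H4 gene Hist2h4 (0.0347). Hist1h2bb was next, at 0.0503. All 7 had their highest lane mean in lane 6, as did 19 of the 48 genes in all.

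Hist1h1e averaged 92.2 CPM in lane 1, 71.3 CPM in lane 2 and 254 CPM in lane 6. Its lane 6 libraries had 237, 235 and 271 CPM in B16F10 replicates 5 to 7 and 152 and 374 CPM in B16F0 replicates 4 and 5. Every lane 6 library was above every library of the other lanes, whose highest value was 131 CPM. Hist1h1e was picked by the lane test, and the share of all genes separated in this way was not counted. Hist1h2be, whose exons overlap those of Hist1h1e on the same strand, averaged 22.4, 15.1 and 50.2 CPM in lanes 1, 2 and 6. Because of that overlap their reads cannot be told apart fully. Hist1h2bc averaged 35.7, 25.4 and 86.2 CPM, Hist2h4 19.2, 15.8 and 45.4 CPM, and Hist1h2bg 36.0, 18.3 and 79.5 CPM in lanes 1, 2 and 6. Hist1h2bc was not separated by lane in every library, since B16F10 replicate 5 of lane 6 had 33.7 CPM and B16F10 replicate 3 of lane 1 had 41.0 CPM.

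Between lane 1 and lane 6, 4 of 44 histone genes were lower in lane 1 (5.4% of all genes) and 1 was higher (6.24% of all genes). The lower ones were Hist1h1e (log2 fold change -1.46 ± 0.26), Hist1h2bc (-1.29 ± 0.31), Hist2h4 (-1.24 ± 0.29) and Hist1h2be (-1.17 ± 0.24), with adjusted p between 0.0206 and 0.03 (edgeR). The higher one was Hist1h4j, an H4 gene at 0.738 CPM on average (log2 fold change 3.10 ± 0.85, adjusted p = 0.0382). Between lane 2 and lane 6, 2 of 44 were lower in lane 2, Hist1h1e (-1.85 ± 0.29) and Hist1h2be (-1.75 ± 0.27), and 0 were higher, where 0.199% of all genes were lower and 0.163% higher. Between lane 2 and lane 1, 0 genes of 13534 were called in edgeR's test (0% of all genes). The median log2 fold change of the 44 genes was 0.16 for lane 1 over lane 6 and -0.63 for lane 2 over lane 6, beside 0.03 and 0.02 over all genes. H2B genes had medians of -0.60 and -1.24 in these contrasts, and H4 genes of 0.25 and -0.32.

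Other features of the libraries moved with lane. Of 12 tested genes for RNAs without poly(A) other than histones, 6 were lower in lane 1 than in lane 6, with a median log2 fold change of -2.38. Between lane 2 and lane 6, 0 of them were called and the median was -0.15. Leaving out Rn45s, the RNAs of this list summed to a mean of 642, 1937 and 1501 CPM in lanes 1, 2 and 6. The mean was thus highest in lane 2, where the histone sum was lowest, but this order of the RNAs without poly(A) was that of B16F10 alone. Of the B16F10 libraries, replicate 1 (3280 CPM) and replicate 2 (1827 CPM), both of lane 2, stood above all others. The lane 2 library of B16F0, replicate 1, held 706 CPM, less than replicate 4 (1997 CPM) or replicate 5 (1686 CPM) of that line in lane 6. Erythroid markers summed to a mean of 12.7 CPM in lane 1, 11.8 CPM in lane 2 and 48.6 CPM in lane 6, and were highest in B16F10 replicate 7 (73.6 CPM) and B16F0 replicate 5 (100.3 CPM), both of lane 6. The erythroid gene that was tested, Alas2, which starts heme synthesis in red cell precursors, was lower in lane 1 than in lane 6 (log2 fold change -1.99 ± 0.56, adjusted p = 0.0408; edgeR). Leukocyte markers averaged 108, 115 and 47.2 CPM and S phase genes 5145, 4377 and 3560 CPM in lanes 1, 2 and 6, lowest in lane 6 in both cases. The part of these RNAs in the histone values was not tested. Without the 2 Rn45s-rich libraries, both of lane 6, 0 histone genes passed and Hist1h1e had an adjusted p of 0.0502. The lane calls rested on single libraries too: 0 histone genes passed without B16F10 replicate 1, 2, 6 or 7 or without B16F0 replicate 2 or 5. In those 6 fits between 0 and 16 genes passed in all, and the lane 1 over lane 6 log2 fold change of Hist1h1e was between -1.51 and -1.17. Without B16F0 replicate 1 there were 11 histone genes (2273 genes in all), and without B16F10 replicate 5 there were 15 (951 in all). Without B16F10 replicate 4 there were 5, and without B16F0 replicate 4 there were 2. Totals over all genes are not given for the fits without either replicate 4, so these counts cannot be read as particular to histone genes. The direction of the 7 genes, lower in lane 1 than in lane 6, was the same in every fit run. Each prefix in the library names occurs in 1 lane alone, so lane cannot be told apart from whatever the prefixes mark.

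**Figure D4:**
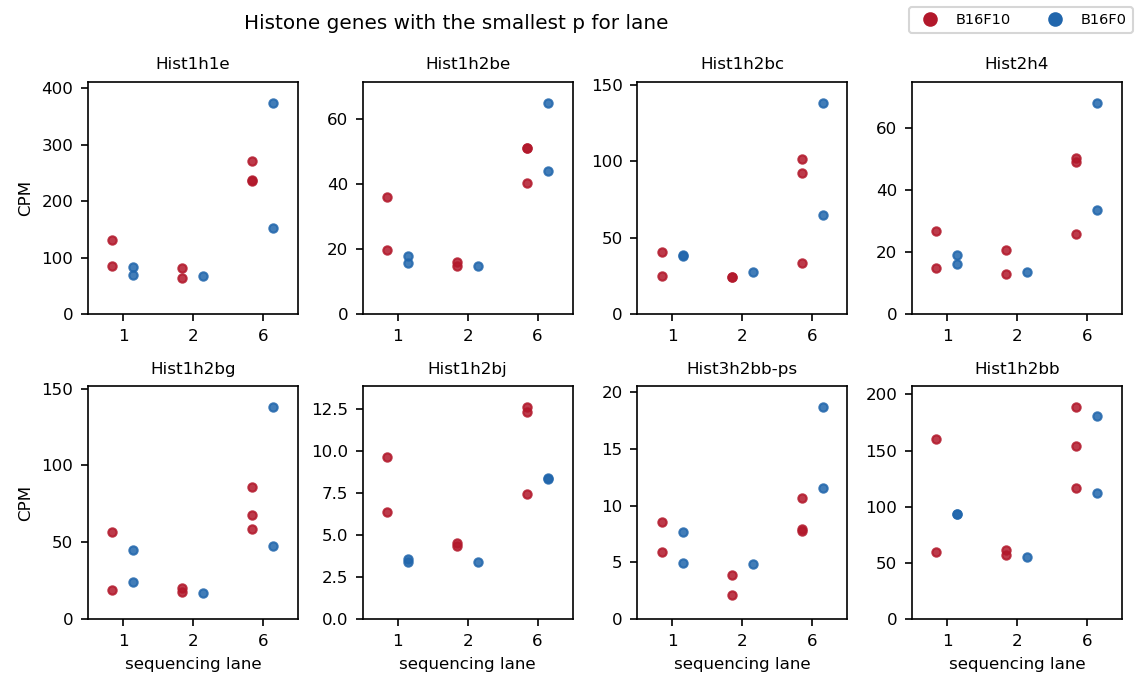
CPM (y axis) of the 8 histone genes with the smallest joint p for lane, by sequencing lane (x axis), 1 point per library, B16F10 in red left of B16F0 in blue. For Hist1h1e every lane 6 point lies above every other point, while Hist1h2bc has a lane 6 point, at 33.7 CPM, within the range of lane 1.

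A test of whether the line difference varied by lane called 0 of 44 histone genes and 0% of all genes; at an unadjusted p under 0.05 it gave 0 histone genes and 1039 genes in all (edgeR). The smallest unadjusted p of a histone gene was that of Hist1h2bh, at 0.0807.

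The libraries also differed in how much endothelial RNA they held, and a few histone genes followed it. The endothelial score is the mean log2 CPM of 20 endothelial markers, Cdh5 and Pecam1 among them. It was 7.28 in B16F10 replicate 4, 6.72 in B16F10 replicate 5 and 7.36 in B16F0 replicate 3, and between 4.56 and 5.48 in the other 9 libraries. B16F10 replicate 4 and B16F0 replicate 3 share lane 1 and a library name prefix. Slopes give the log2 change of a gene per unit of score, with lane and line in the model. They were positive and called for 3 of 44 histone genes and negative and called for 6 of 44, where 4.49% of all genes were called positive and 0.502% negative. The 3 of 44 positive is thus near the background.

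The positive ones were the H1 genes Hist1h1a and Hist1h1b and the H2B gene Hist1h2bn. In the 3 endothelial-rich libraries, Hist1h1b reached 21.1 CPM (B16F10 replicate 4), 21.8 CPM (B16F10 replicate 5) and 24.1 CPM (B16F0 replicate 3), while the remaining 9 ran between 1.44 and 12.1 CPM. Hist1h1a reached 11.1, 18.0 and 13.1 CPM in the same order, and 0.986 to 8.77 CPM in the remaining 9. Hist1h2bn reached 8.41, 11.8 and 7.67 CPM, and 0.228 to 3.15 CPM in the remaining 9. For all 3 genes the endothelial-rich libraries lay above every other library. The genes were picked by their slope on a score that sets the same libraries apart, so this separation is not separate support. The share of all genes that separated in this way was not counted. The slope was 1.07 ± 0.20 for Hist1h1b (adjusted p = 0.00669), 0.99 ± 0.24 for Hist1h1a (adjusted p = 0.0335) and 1.19 ± 0.25 for Hist1h2bn (adjusted p = 0.0145; edgeR). The score of 50 S phase genes was between 5.52 and 5.55 in these 3 libraries and between 5.40 and 6.38 in the others, and their summed histone level, 1423 to 2014 CPM, lay inside the range of the others. Leukocyte markers summed to between 69.3 and 77.9 CPM in the 3 libraries and to between 20.6 and 142 CPM in the others.

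By position, the positive slopes lay mostly together. Genes less than 100000 bases apart were joined into sub-clusters, which gave 3 on chromosome 13. The sub-cluster of Hist1h1b and Hist1h2bn holds 8 of the genes, of which 5 were tested, and all 5 had positive slopes, with a median of 0.87. In the sub-cluster of Hist1h1a, 1 of 25 tested genes had a positive slope, Hist1h1a itself, and the median was -0.36. The other 3 tested genes of that first sub-cluster were Hist1h4j (0.87 ± 0.38, adjusted p = 0.223), Hist1h2bm (0.84, adjusted p = 0.0964) and Hist1h4k (0.63 ± 0.36, adjusted p = 0.338; edgeR). Its 8 genes summed to 34.8 and 45.9 CPM in the endothelial-rich B16F10 libraries and 44.1 CPM in the B16F0 one, against 3.03 to 21.1 CPM elsewhere. The 3 of its genes that were too low for the test had slopes of 1.42 (Hist1h2ai), 0.86 (Hist1h2ak) and 0.43 (Hist1h4n) without the filter, none past an adjusted p of 0.05. This sub-cluster held 0.897% of the histone sum. Many of its windows are shared with other histone genes, with 13.6% of those of Hist1h2bn unique, whereas all windows of Hist1h1a and Hist1h1b are unique.

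Genes with negative slopes were Hist1h4c (-0.56 ± 0.10, adjusted p = 0.00328), Hist1h4a (-0.72 ± 0.14, adjusted p = 0.00834), Hist1h2bk (-0.57 ± 0.11, adjusted p = 0.00927), Hist1h4f (-0.46 ± 0.09, adjusted p = 0.0102), Hist1h1c (-0.39 ± 0.10, adjusted p = 0.034) and Hist2h2bb (-0.44 ± 0.11, adjusted p = 0.0469; edgeR). Of these 6, 3 encode H4. In the endothelial-rich libraries Hist1h4c stood at 21.9 CPM (B16F10 replicate 4), 19.6 CPM (B16F10 replicate 5) and 17.7 CPM (B16F0 replicate 3), which overlapped the 18.1 to 51.7 CPM of the remaining 9. In all, 38 of 44 slopes were below 0, with a median of -0.33, beside one of -0.002 over all genes. Of the S phase genes 45 of 50, and of the melanocytic markers 11 of 12, also had negative slopes, and their part in the histone slopes was not tested.

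The slopes rest on few libraries. Leaving out the 3 endothelial-rich libraries, an alternative chosen after seeing the data, ended every call of a histone gene; the slopes were then 1.28 for Hist1h1b, 0.51 for Hist1h1a and 1.82 for Hist1h2bn. The negative slopes were then -0.09 for Hist1h4a, -0.002 for Hist1h4f, -0.64 for Hist1h4c, -0.62 for Hist1h1c, -0.91 for Hist1h2bk and -0.86 for Hist2h2bb. Without B16F10 replicate 5, 0 positive calls were left: the slope was 0.56 for Hist1h1b (adjusted p = 0.0517), 0.33 for Hist1h1a (0.257) and 0.92 for Hist1h2bn (0.0874). That library is the one with the most Rn45s. The call of Hist1h1a was also lost without B16F10 replicate 6 or 7 or B16F0 replicate 2 or 4, with adjusted p between 0.0553 and 0.0891. Negative calls numbered 1 without B16F10 replicate 3, which left Hist1h4c, 3 without B16F10 replicate 4, 4 without B16F10 replicate 6 or 7, 10 without B16F10 replicate 5, and 13 without B16F0 replicate 1. The number of all genes called was not recorded in these fits, so the counts have no background beside them. Hist2h2bb, Hist1h1c and Hist1h4f lost their calls in 9, 6 and 3 of the 12 fits that left out 1 library. Without a lane term, which ended all 6 negative calls, the 3 positive calls stood. With the library name prefix in place of the lane, slopes of Hist1h4a (-0.70, adjusted p = 0.0847), Hist1h4c (-0.44, 0.0539), Hist1h4f (-0.31, 0.107) and Hist2h2bb (-0.35, 0.0595) lost their calls, and those of the 3 positive genes were 1.71 for Hist1h1a, 1.67 for Hist1h1b and 1.54 for Hist1h2bn.

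**Figure D5:**
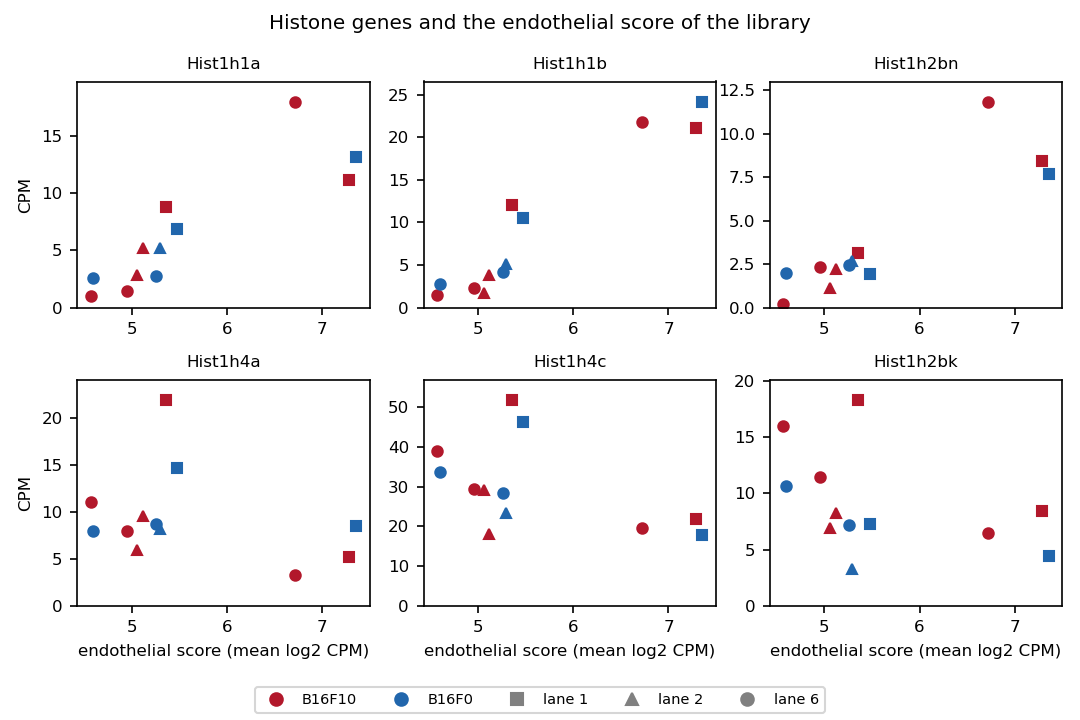
CPM (y axis) against the endothelial score (x axis, mean log2 CPM of 20 markers) for 3 histone genes with called positive slopes (top) and 3 with called negative slopes (bottom), 1 point per library, coloured by line and shaped by lane. The 3 libraries with a score above 6 have the highest values of Hist1h1a, Hist1h1b and Hist1h2bn.

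The S phase score, the mean log2 CPM of 50 S phase genes other than histones, was 6.38 in B16F10 replicate 3 and 6.19 in B16F0 replicate 2, and between 5.40 and 5.82 in the others. Slopes on it were positive and called for 4 of 44 histone genes and negative for 0, where 6.68% of all genes were called positive and 6.66% negative. The 4 of 44 positive is thus near the background. The 4 were the H1 gene Hist1h1d (1.67 ± 0.40, adjusted p = 0.026) and the H4 genes Hist4h4 (1.87 ± 0.35, adjusted p = 0.0175), Hist1h4f (1.37 ± 0.34, adjusted p = 0.0277) and Hist1h4h (1.63 ± 0.45, adjusted p = 0.0383; edgeR). Hist4h4 had 28.1 CPM in B16F10 replicate 3 and 19.6 CPM in B16F0 replicate 2, and between 7.8 and 15.1 CPM elsewhere. Hist1h4f had 82.5 and 64.6 CPM in those libraries and between 23.4 and 40.2 CPM elsewhere. Both libraries stood above all others for both genes. The genes were picked by their slope on a score that is highest in the same libraries, so this is not separate support. Of the 44 slopes 35 were above 0, with a median of 0.70. The median was 1.14 for H4, 0.97 for H3, 0.73 for H1, 0.67 for H2B and 0.62 for H2A. Over all tested genes, 6626 of 13534 slopes were above 0, with a median of -0.026. Slopes of 11 of 12 melanocytic markers (median 0.91) and 9 of 9 tested leukocyte markers (median 1.36) were also above 0. Those of 0 of 20 endothelial markers were (median -2.19). The part of these cell types in the histone slopes was not tested.

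These slopes turn on those 2 libraries, which share a library name prefix. Leaving out both, again an alternative chosen after seeing the data, ended all 4 calls, with slopes of -0.76 for Hist1h4f, -1.98 for Hist1h4h, -0.31 for Hist4h4 and 0.21 for Hist1h1d. Leaving out B16F10 replicate 3 or 4 or B16F0 replicate 2 or 3 alone also left 0 calls. The slopes were then between 1.34 and 1.71 for Hist1h1d, 1.28 and 1.96 for Hist4h4, 1.08 and 1.36 for Hist1h4f, and 1.21 and 1.72 for Hist1h4h. Without B16F10 replicate 5 or 7, 7 histone genes were called. The number of all genes called was not recorded in these fits. On the log2 CPM of Rn45s, 0 of 44 histone genes had a called slope, where 0.17% of all genes did (edgeR). At an unadjusted p under 0.05 there were 4 histone genes, beside 2630 of all 13534 tested genes.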

How the data were processed

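The authors deposited raw counts per gene for 12 libraries. Per the labels' protocols, libraries were made with the ScriptSeq kit. The submitters' processing notes name cutadapt 1.16, STAR 2.2.1, featureCounts 1.6.0, edgeR, R 3.3.2 and the build mm10. The sources used here do not state the counting annotation, its strand setting or any poly(A) selection. Lanes come from the library names in the labels.

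Here, edgeR 4.0.16 in R 4.3.3 kept genes by filterByExpr (minimum count 10), scaled by TMM and tested with a quasi-likelihood model of lane plus line. P-values were adjusted by Benjamini-Hochberg over 13534 genes at 0.05. Scores are means of log2 CPM with a prior count of 2, and each slope adds 1 score to the model. The common biological coefficient of variation was 0.318. DESeq2 1.42.0 and limma-voom 3.58.1 were alternatives. The test was checked on simulated data. No pair of libraries of the same line agreed within sampling noise, and pairs across the lines were not compared.

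The histone genes and all lists were chosen with earlier results of these data known. Values are given for genes past the threshold, the 8 highest in CPM, the 3 highest and 3 lowest line fold changes, those of smallest p for lane and interaction, the H1 genes, the 3 with known polyadenylated forms, and those next to the limit of 50 counts. Genes singled out beyond these were chosen after their values were seen.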

Additional observations from a re-analysis of the deposited data

Results flagged for a closer look

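Among 30 named histone genes and 7 sums, each line was searched for a library far from the others, meaning that its gap to the next took more than 0.568 of the range in B16F10 (n = 7) or 0.71 in B16F0 (n = 5). Of 74 such groups 11 held one. A rate of about 1 in 20 would hold for independent, normally distributed values. The groups share libraries, the sums hold named genes, and some genes were named for tests that rest on the same libraries. The count of 11 therefore cannot be set against that rate.

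B16F10 replicate 3 stood above the other B16F10 libraries for Hist1h4d (549 CPM, others 162 to 289), Hist1h4f (82.5 CPM, others 23.4 to 38.5), Hist4h4 (28.1 CPM, others 7.8 to 11.7), Hist1h4a (21.8 CPM, others 3.24 to 11), the sum of H4 genes (814 CPM, others 272 to 466) and Hist1h1t (12.5 CPM, others 2.3 to 6.64). B16F0 replicate 2, which shares its lane and library name prefix, stood above the other B16F0 libraries for Hist1h4f (64.6 CPM, others 31.5 to 40.2) and Hist1h4a (14.6 CPM, others 7.96 to 8.68). B16F0 replicate 5 was high for Hist1h1e (374 CPM, others 67.4 to 152) and Hist1h2bg (138 CPM, others 17.2 to 47.5). B16F0 replicate 3, rich in endothelial RNA, was high for Hist1h2bn (7.67 CPM, others 1.94 to 2.68).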

How the results depend on the processing

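Between the lines, the 375 genes called became 630 with the library name prefix in place of the lane, 643 at a false discovery rate of 0.1, 177 without lane 2, 236 without the 2 libraries with Rn45s over 5%, 692 with the S phase score as a covariate and 852 by DESeq2, and between 203 and 446 when 1 library was left out. The 1 histone gene called became 0 with the prefix, with library size scaling, without lane 2 and without the Rn45s-rich libraries, 2 with the endothelial score as a covariate, and 0 to 1 when 1 library was left out. Replicate numbers do not pair the libraries (correlations of their deviations between -0.287 and 0.322 for 5 numbers); with the number as a replicate block, 39 genes and 0 histone genes were called, and Hist2h2be had an adjusted p of 0.135.

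For lane, the 425 genes called became 1110 with library size scaling, 852 without a filter, 2037 at a false discovery rate of 0.1, 1956 without lane 2, 0 without the Rn45s-rich libraries and 2566 by DESeq2, and between 0 and 2273 when 1 library was left out. The 7 histone genes became 12 at 0.1, 0 without the Rn45s-rich libraries, 14 by DESeq2, and 0 to 15 when 1 library was left out.

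Slopes on the endothelial score called 3 histone genes positive and 6 negative. These became 3 and 0 without a lane term, 5 and 8 with the prefix (4 of the 6 negative genes named lost their call), 0 and 10 without the Rn45s-rich libraries, 0 and 0 without the 3 endothelial-rich libraries, and 0 to 3 and 1 to 13 when 1 library was left out. The 4 called on the S phase score became 8 without the Rn45s-rich libraries, 0 without the 2 libraries of the shared prefix, and 0 to 7 when 1 library was left out; Hist1h4f (-0.76), Hist1h4h (-1.98) and Hist4h4 (-0.31) then changed sign without those 2 libraries. The number of all genes called was not recorded in these slope fits, so a rise or fall cannot be read as particular to histone genes. The cause of these shifts was not tested beyond the smaller number of libraries. The ratio of the summed level stayed between 1.02 and 1.14 under 3 other ways of summing. Low counts and shared sequence limit the smaller genes.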
